A study of Mus musculus with 4 samples.

Results

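Decorin (Dcn), lumican (Lum), biglycan (Bgn), fibromodulin (Fmod), osteoglycin (Ogn), endosialin (Cd248), the PDGF receptor genes Pdgfra and Pdgfrb, Thy1 and periostin (Postn) are used as markers of stromal fibroblasts and of pericytes, the mural cells of small vessels. They are 10 of the 24171 genes measured on 4 single-colour arrays, and they were read by 19 of 44170 targets, a target being a transcript sequence that nearly always has 3 probes. The genes were chosen by name as stromal markers, with their intensities in this same contrast already known. Their differences between the groups are therefore given as a description, and where the fit across all genes put one of them past its threshold, that call is not independent evidence.

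By the labels, 2 arrays held total RNA of Neuro2a (N2a) cells, a mouse neuroblastoma line, transfected with an siRNA against Men1 (the gene for menin, genotype label Men1 knockdown), and 2 held RNA of N2a cells transfected with a scramble siRNA (genotype label control). All cells were grown in DMEM with 10% FBS. No source used here states the siRNA dose or the time of harvest, and no label says that replicates were separate cultures, so the spread between arrays may be technical. Values are linear RMA intensities (robust multi-array average), and each log2 change is the Men1 siRNA mean less the scramble siRNA mean, with the standard error (SE) of a limma fit across all genes, n = 2 arrays per group.

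Fibroblasts build the collagen matrix of connective tissue, and small leucine-rich proteoglycans bind to collagen fibrils and set their spacing and thickness. Pericytes are recruited to vessels through platelet-derived growth factor (PDGF) from endothelium, which acts on the receptor encoded by Pdgfrb. Pdgfra marks many tissue fibroblasts and, in brain, oligodendrocyte precursors. Neuroblastoma lines are neural crest derived tumour cells, and genes of the sympathetic lineage define the normal counterpart of this tumour.

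Array medians lay at 145.9 and 147.2 for Men1 siRNA and at 146.0 and 151.2 for scramble siRNA. Intensities across targets correlated with r = 0.945 and r = 0.948 within the groups, and with r between 0.902 and 0.934 between them. An intensity of 100 is used as a working level above background, since the 20620 targets in the authors' combined value table are those that reached it on all arrays, and no others. The random probes of the arrays read lower, 48.1 and 52.3 with Men1 siRNA and 45.5 and 42.8 with scramble siRNA. A value under 100 can therefore still hold some signal. Men1 itself read 2764 and 4109 with Men1 siRNA and 6985 and 6222 with scramble siRNA, 51.1% of the scramble level on the log2 scale, and it did not pass the threshold (limma adjusted p = 0.314).

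The neuroblast markers that were measured do not match the label in full. Of 10 measured neuroblast and catecholamine genes, 4 reached 100 on all arrays, while only the lineage factor Hand1 was under 100 on every array. Phox2a, Hand2 and Dbh of the same list were not measured, so the match is judged without them. The 3 brightest were well above 100 on every array. Chga read 6539 and 5266 with Men1 siRNA and 3178 and 4484 with scramble siRNA. Chgb read 5781 and 5126 with Men1 siRNA and 3177 and 3542 with scramble siRNA. Mycn read 1607 and 1465 with Men1 siRNA and 876.9 and 1420 with scramble siRNA. The summed intensity of the 10 genes was 12920 to 15299 with Men1 siRNA and 8028 to 10724 with scramble siRNA. All 10 measured forebrain neuron markers reached 100 on all arrays, with sums of 32468 to 36013 with Men1 siRNA and 17923 to 26517 with scramble siRNA. The transcription factor gene Neurod2 read 9423 and 7844 with Men1 siRNA and 4894 and 5778 with scramble siRNA. The haemoglobin gene Hbb-b1 read 18273 and 23472 with Men1 siRNA and 12325 and 7273 with scramble siRNA, a log2 change of 1.13 ± 0.39. Of the other 2 brightest red cell markers, Hba-a1 had 0.86 ± 0.47 and Alas2 0.02 ± 0.40, the groups overlapping for Alas2. Over the 5 red cell markers the median was 0.86 and 0 passed in limma (0 lower and 1 higher at an unadjusted p under 0.05). In RNA of this kind, fewer cells of a type and less RNA per cell cannot be told apart.

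Across the 10 genes the median log2 change was −1.76, beside 0.06 over all 24171 genes. With the mean of all targets of a gene in place of the brightest, it was −0.98. The values were negative for 8 genes and positive for 2, Fmod and Ogn, whereas 45.5% of all genes were negative. For 8 genes both Men1 siRNA arrays read below both scramble siRNA arrays, an arrangement found for 21.7% of all genes. In limma, at a Benjamini-Hochberg adjusted p under 0.05, 1 gene passed as lower (Cd248), beside 0.352% of all genes, and 0 passed as higher, beside 0.0372% of all genes. At an unadjusted p under 0.05 the counts were 6 lower and 0 higher, beside 7.74% and 6.47% of all genes. Because the genes were picked with this contrast in view, these counts describe them and support nothing further. The calls across all genes depend on all 4 arrays: with any 1 left out, 0 genes passed in limma, with 2082 to 3342 at an unadjusted p under 0.05.

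**Figure D1:**
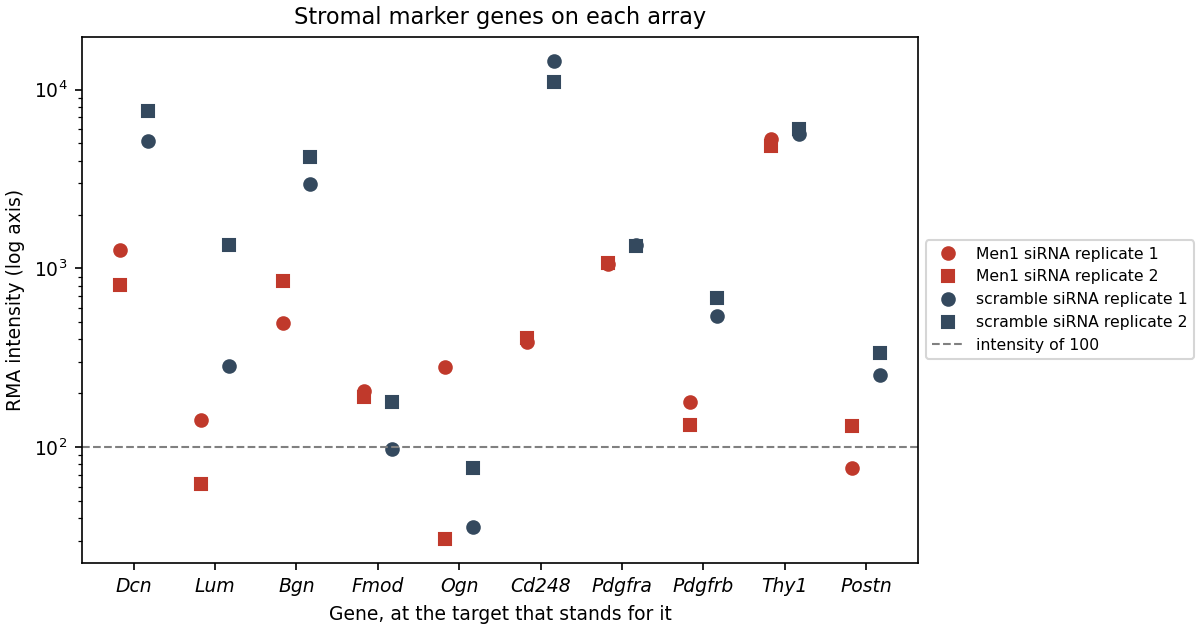
RMA intensity on a log axis for each of the 10 genes at the target that stands for it, with 1 point per array, Men1 siRNA to the left of scramble siRNA, circles for replicate 1 and squares for replicate 2. Cd248 shows the widest separation, with 385.7 and 405.6 against 14530 and 11048, while the Thy1 points lie close together and the Ogn points interleave. Heights are not comparable between genes, since each is read by other probes.

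The proteoglycans came in a lower and a weakly measured group. Dcn, which encodes the dermatan or chondroitin sulfate proteoglycan that coats collagen fibrils and binds TGF-beta, read 1269 and 806.5 with Men1 siRNA and 5136 and 7621 with scramble siRNA. The groups did not overlap, and the log2 change was −2.63 ± 0.40 (SE), or 16.2% of the scramble level. Its second target read 1112 and 639.7 with Men1 siRNA and 3997 and 7088 with scramble siRNA, a log2 change of −2.66 ± 0.46. Both targets lie in the same locus, 96942242 to 96980785 on chromosome 10 of MM9, so they do not count as separate observations of the gene.

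Bgn encodes the closest relative of decorin, and like decorin it carries chondroitin or dermatan sulfate chains. Its brightest target read 496.1 and 855.2 with Men1 siRNA and 2969 and 4221 with scramble siRNA, a log2 change of −2.44 ± 0.41. The groups were again apart, but the size differed between targets of the gene. Another target read 113.6 and 111.5 with Men1 siRNA and 155.3 and 213.1 with scramble siRNA (−0.69 ± 0.35). The last one read 43.9 and 42.7 with Men1 siRNA and 49.98 and 42.5 with scramble siRNA, under 100 throughout. The annotated transcript of the brightest target extends to position 70741270 on chromosome X (MM9), whereas the transcripts of the other 2 end at 70737723 and 70737721. No source used here places the probes within these transcripts.

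Lum encodes lumican, a keratan sulfate proteoglycan of cornea, skin and other connective tissues. It read 142.5 and 62.2 with Men1 siRNA and 284.6 and 1360 with scramble siRNA. The groups did not overlap, but the scramble siRNA arrays differed from each other more than the nearest arrays of the 2 groups did. The log2 change of −2.72 ± 0.82 therefore has the second largest SE of the 10 genes, and it lay between −3.85 and −1.60 when each array was left out in turn. In addition, 1 Men1 siRNA array was under 100, which makes the size less certain.

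Fmod, the gene for a second keratan sulfate proteoglycan of tendon and cartilage, had the opposite sign. It read 205.9 and 191.8 with Men1 siRNA and 97.7 and 178.2 with scramble siRNA, a log2 change of 0.59 ± 0.40. Both Men1 siRNA arrays were above both scramble siRNA arrays, by a small margin, and 1 scramble siRNA array was under 100. Ogn, also called mimecan, encodes a small proteoglycan first known from bone. Its brighter target read 279.7 and 30.6 with Men1 siRNA and 35.7 and 76.5 with scramble siRNA, so that 1 array of 4 was above 100. The change of 0.83 ± 1.05 rests on that array: without Men1 siRNA replicate 1 it was −1.05. The other target of Ogn was under 100 on all arrays, with 43.6 and 29.8 for Men1 siRNA and 55.1 and 69.2 for scramble siRNA. No direction can be given for Ogn.

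Genes of this proteoglycan family lie in clusters, which the choice of genes did not use. On chromosome 10 of MM9 the order along the files' coordinates was Dcn, Lum, Kera and Epyc, with gaps of 47.7, 34.6 and 33.6 kb and no other target in between. Kera (keratocan of the cornea) read 53.3 and 48.8 with Men1 siRNA and 49.7 and 83.1 with scramble siRNA, and Epyc (epiphycan of growth cartilage) read 35.4 and 47.2 with Men1 siRNA and 52.3 and 30.8 with scramble siRNA. Both were under 100 on all 4 arrays, beside Dcn and Lum at −2.63 and −2.72. On chromosome 13 Ogn follows Ecm2, Aspn and Omd, and of these 4 genes Aspn and Omd were under 100 on every array, while Ecm2 reached 100 on 1 array (157.8, Men1 siRNA replicate 2). On chromosome 1 Fmod follows Optc and Prelp. Prelp, a proteoglycan of basement membranes and cartilage, read 154.8 and 300.7 with Men1 siRNA and 367.2 and 143.7 with scramble siRNA, and Optc, known from the eye, read 128.4 and 80.9 with Men1 siRNA and 127.1 and 118.5 with scramble siRNA, so the groups overlapped for both genes.

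Over the 11 other family members measured, 0 passed in limma in either direction, 0 had an unadjusted p under 0.05, and the median log2 change was −0.09. Of these, 6 were under 100 on all arrays, namely Omd, Kera, Aspn, Epyc, Nyx and Podn. The remaining ones were Podnl1 at −0.82 ± 0.51, Chad (chondroadherin) at −0.47 ± 0.71, Ecm2 at 0.34 ± 0.70, Optc at −0.27 ± 0.36 and Prelp at −0.09 ± 0.58.

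**Figure D2:**
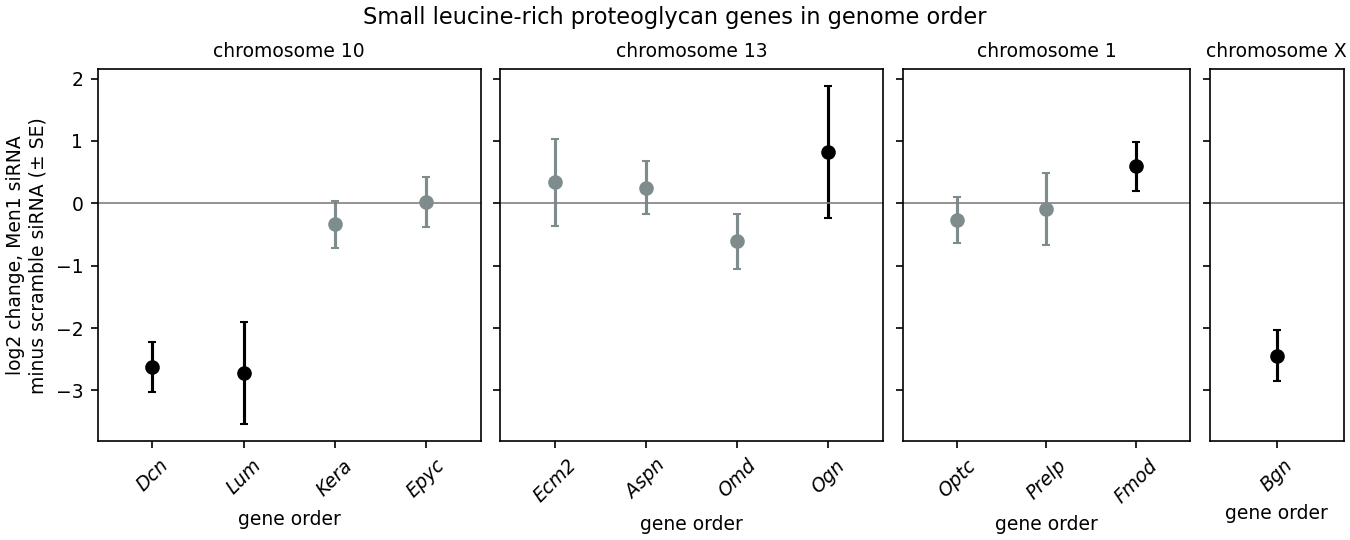
Log2 change (Men1 siRNA minus scramble siRNA, ± SE, 2 arrays per group) of small leucine-rich proteoglycan genes in their order along chromosomes 10, 13 and 1, and of Bgn on chromosome X. Black points are genes of the marker set and grey points their family neighbours. Dcn (−2.63), Lum (−2.72) and Bgn (−2.44) lie far below 0, and the neighbours of Dcn and Lum on chromosome 10 lie near it.

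Sequence before the transcription start was read for 5 of the 10 genes from the RefSeq promoter table (build GRCm38.p6). It came as 6 windows of 250 bases, since Postn has 2 annotated starts in that table. No window of the other genes was examined. The windows of Bgn and of the downstream Postn start are shown because both genes read lower with Men1 siRNA while their start regions differ in composition. The window of Ogn is shown as that of a family member of Bgn that was near background. Each is given from 5′ to 3′ and ends at the base before the start, and capitals mark matches, on either strand, to the motif TATAAA of TATA boxes or the motif GGGCGG of GC boxes.
Bgn, chrX:73483351-73483600, plus strand: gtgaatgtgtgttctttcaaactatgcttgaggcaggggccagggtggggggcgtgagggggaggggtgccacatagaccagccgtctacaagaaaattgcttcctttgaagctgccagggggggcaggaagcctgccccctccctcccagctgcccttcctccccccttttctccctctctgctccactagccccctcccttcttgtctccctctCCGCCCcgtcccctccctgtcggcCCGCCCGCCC
Postn, chr3:54360857-54361106, plus strand: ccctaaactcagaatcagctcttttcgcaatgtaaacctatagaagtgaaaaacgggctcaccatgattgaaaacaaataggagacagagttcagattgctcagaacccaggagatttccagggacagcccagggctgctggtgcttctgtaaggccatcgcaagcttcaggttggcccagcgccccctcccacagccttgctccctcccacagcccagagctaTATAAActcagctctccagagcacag
Ogn, chr13:49607765-49608014, plus strand: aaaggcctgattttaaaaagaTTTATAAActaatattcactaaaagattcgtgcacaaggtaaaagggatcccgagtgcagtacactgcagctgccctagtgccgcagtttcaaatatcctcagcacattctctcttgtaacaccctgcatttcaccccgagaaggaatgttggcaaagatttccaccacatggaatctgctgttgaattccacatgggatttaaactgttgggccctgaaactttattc

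The Bgn window held 3 GC box matches, at −34, −10 and −6 from the start, the last 2 of them overlapping, and no TATA box match. It had 7 CpG sites and 64.4% G plus C, beside medians of 6 and 52.4% over 32851 windows in the table. The Postn window held a TATA box match at −26, and the upstream Postn start had none. The 2 TATA box matches of Ogn overlap each other at −229 and −227, read on opposite strands. The windows of Pdgfra and Fmod held none of these motifs, and a search for CCAAT on both strands found no match in any of the 6 windows. A TATA box match occurred in 12.4% of all windows, a GC box match in 32.7% and CCAAT in 33.8%. A match describes the letters and does not show a bound site.

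Among the surface receptors, Cd248 had the largest absolute log2 change of the 10 genes. It encodes endosialin, a transmembrane C-type lectin-like protein of pericytes and activated fibroblasts (gene ID 70445, chromosome 19, 5068077 to 5070639 on MM9). Its only target read 385.7 and 405.6 with Men1 siRNA and 14530 and 11048 with scramble siRNA. All arrays were well above 100, the 2 Men1 siRNA arrays differed by little, and the groups were far apart, at 395.6 ± 14.0 and 12789 ± 2462 (mean ± SD). The log2 change was −5.00 ± 0.33 (SE), 3.12% of the scramble level, and it lay between −5.20 and −4.80 when each array was left out, although with 3 arrays the gene no longer passed. With intensities floored at 100 its log2 change was the same, but it did not pass either.

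Pdgfrb (chromosome 18, 61205094 to 61244713 on MM9) encodes the receptor tyrosine kinase that pericytes need for recruitment. It read 179.6 and 132.9 with Men1 siRNA and 543.1 and 682.0 with scramble siRNA. The groups did not overlap, and the log2 change was −1.98 ± 0.34, or 25.4% of the scramble level.

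Pdgfra, the gene for the receptor that binds PDGF-AA, was read by 5 targets that did not give 1 size. The brightest read 1062 and 1065 with Men1 siRNA and 1347 and 1332 with scramble siRNA, a log2 change of −0.33 ± 0.30. The arrays within each group were almost equal there, and the groups were apart by a small step, to 79.4% of the scramble level. A second target read 640.5 and 482.5 with Men1 siRNA and 882.7 and 1069 with scramble siRNA (−0.81 ± 0.35). Another target read 197.6 and 168.1 with Men1 siRNA and 543.2 and 371.5 with scramble siRNA (−1.30 ± 0.36). On these 3 targets the groups did not overlap, the Men1 siRNA arrays being the lower ones. A further target overlapped between groups, with 105.1 and 257.0 for Men1 siRNA and 88.9 and 202.1 for scramble siRNA (0.29 ± 0.60), and the remaining one was under 100 on all arrays, with 30.3 and 27.9 for Men1 siRNA and 90.6 and 48.0 for scramble siRNA. The transcripts annotated to the 5 targets differ in extent: that of the brightest ends at 75591879 on chromosome 5 (MM9), and those of the other 2 targets that were above 100 with separate groups end at 75580156 and 75571175. The mean of all 5 targets gave −0.67, so the size for this gene depends on the target that is read.

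The ligands of these receptors, which were not part of the marker set, had no gene past the threshold in limma among 5 measured with the receptor-like gene Pdgfrl, and 2 of them had an unadjusted p under 0.05, both lower. Pdgfa read 1129 and 1031 with Men1 siRNA and 927.0 and 869.2 with scramble siRNA (0.27 ± 0.31). Pdgfb, the ligand that endothelium presents to pericytes, read 603.8 and 501.1 with Men1 siRNA and 332.6 and 579.5 with scramble siRNA (0.33 ± 0.39). Neither had the sign of the receptor genes. Pdgfc read 60.8 and 60.3 with Men1 siRNA and 116.2 and 132.5 with scramble siRNA, at least 1.24-fold lower. Pdgfd was near or under 100, with 79.2 and 60.3 for Men1 siRNA and 91.0 and 102.0 for scramble siRNA. Pdgfrl read 64.4 and 86.8 with Men1 siRNA and 335.1 and 424.6 with scramble siRNA, at least 3.77-fold lower without passing (limma adjusted p = 0.0826).

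Thy1 encodes a GPI-anchored surface protein of fibroblasts that is also abundant on neurons and T cells. It read 5287 and 4838 with Men1 siRNA and 5644 and 6011 with scramble siRNA. The groups did not overlap, but the log2 change of −0.20 ± 0.31 was smaller than its SE. General neuronal markers, measured for 11 genes, were all positive with a median of 0.53 and 0 past the threshold in limma (2 with an unadjusted p under 0.05, both higher). Of their brightest genes, the neuronal tubulin gene Tubb3 had 0.11 ± 0.31, Stmn2 0.53 ± 0.32 and the growth cone gene Gap43 0.43 ± 0.35. The sum over the list was 125550 to 126251 with Men1 siRNA and 85776 to 105652 with scramble siRNA. The part of neuronal RNA in the Thy1 reading was not tested.

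Postn encodes periostin, a matricellular protein that fibroblasts secrete in response to TGF-beta and mechanical load. Its brighter target read 76.1 and 131.5 with Men1 siRNA and 253.5 and 336.8 with scramble siRNA. The groups did not overlap and 1 Men1 siRNA array was under 100, with a log2 change of −1.55 ± 0.40. The other target was under 100 on all arrays, between 45.1 and 61.0, although the files annotate both targets to the same interval, 54165046 to 54194954 on chromosome 3. Tgfbi, the nearest relative of periostin by protein family, was among the genes past the threshold. It read 326.4 and 417.1 with Men1 siRNA and 4966 and 4567 with scramble siRNA, and fell by 3.69 ± 0.32 on the log2 scale (limma adjusted p = 0.0346). In the list of matricellular and TGF-beta induced genes, Tgfbi and Sparcl1 were negative and 9 of 11 were positive, the list median was 0.84, and 1 fell and 0 rose past the threshold (1 lower and 2 higher at an unadjusted p under 0.05). The thrombospondin gene Thbs1 had 0.90 ± 0.46 and Sparcl1 −0.73 ± 0.33.

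**Figure D3:**
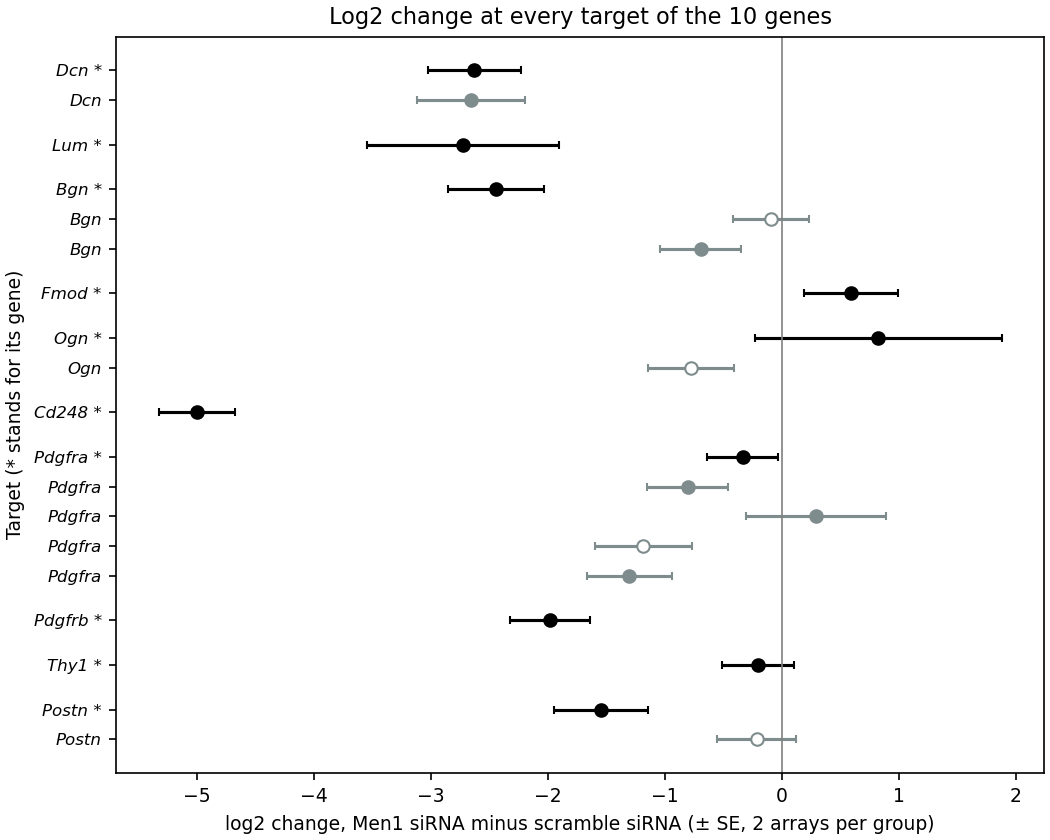
Log2 change (Men1 siRNA minus scramble siRNA) with SE at each of the 19 targets of the 10 genes, 2 arrays per group. Black points marked with an asterisk stand for their gene, grey points are its other targets, and open points were under 100 on all 4 arrays. The 2 targets of Dcn coincide, at −2.63 and −2.66, whereas those of Bgn run from −2.44 to −0.09 and those of Pdgfra from −1.30 to 0.29.

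Several other fibroblast genes were lower as well. The list of 19 further fibroblast and matrix markers measured had a median of −1.54, with 15 genes negative and 4 positive. In limma 6 fell, 0 rose and 13 did not pass (11 lower and 0 higher at an unadjusted p under 0.05, beside 7.74% and 6.47% of all genes). The 6 genes, named here after their values were seen, were Col1a1 (−4.37), Col1a2 (−3.57), Col6a1 (−4.57), Dpt (−3.94), Mfap5 (−3.91) and Mmp2 (−4.27). Dpt encodes dermatopontin, a protein that binds decorin, and read 416.1 and 329.3 with Men1 siRNA and 6256 and 5177 with scramble siRNA. Mfap5, a microfibril gene, was at least 9.46-fold lower, with both Men1 siRNA arrays under 100. The 3 brightest genes of the list had smaller values without passing: Vim, the intermediate filament gene of mesenchymal and many cultured cells, had −0.21 ± 0.35, Sparc −0.60 ± 0.34 and the fibronectin gene Fn1 −1.54 ± 0.38. The 4 positive genes, also named after their values were seen, were S100a4 (1.07), Pdpn (0.78), Prrx1 (0.40) and Fap (0.12). Fap, the gene for fibroblast activation protein, was under 100 on all arrays.

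Pericyte and smooth muscle markers were divided. Of 12 measured, 8 were negative and 4 positive, with a median of −0.75. In limma 1 fell and 0 rose, beside 0.352% and 0.0372% of all genes. At an unadjusted p under 0.05 the counts were 5 lower and 2 higher, beside 7.74% and 6.47% of all genes. Rgs5, a regulator of G protein signalling used as a pericyte marker and named here after its value was seen, read 54.9 and 48.4 with Men1 siRNA and 594.0 and 424.6 with scramble siRNA, at least 5.02-fold lower (limma adjusted p = 0.0403). Mcam read 285.2 and 301.0 with Men1 siRNA and 1974 and 1222 with scramble siRNA (−2.41 ± 0.37). Anpep, the gene for aminopeptidase N, read 65.9 and 557.2 with Men1 siRNA and 11880 and 11390 with scramble siRNA, a log2 change of −5.92 ± 0.97 that did not pass; the Men1 siRNA arrays stood far apart. Acta2, which encodes smooth muscle actin, had the other sign, with 10469 and 14207 for Men1 siRNA and 2962 and 5405 for scramble siRNA (1.61 ± 0.42, not past the threshold). The other positive genes, named after their values were seen, were Tagln (2.69), Kcnj8 (1.07) and Cspg4 (0.12). Abcc9 was under 100 on all arrays.

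Enzymes that build the sugar chains of these proteoglycans were not lower as a list. Of 13 measured, 0 passed in limma (2 lower and 2 higher at an unadjusted p under 0.05), 10 were positive and the median was 0.42. B3gat3, the glucuronosyltransferase that completes the linker to the core protein, had 0.29 ± 0.31. Chpf, a chondroitin polymerizing factor, had 0.28 ± 0.32 and Chst1, a keratan sulfate sulfotransferase, 0.93 ± 0.32. The 3 negative genes, named after their values were seen, were Chst14 (−1.47), Dse (−1.16) and Csgalnact2 (−0.50, under 100 on all arrays). The list median therefore does not speak for every enzyme in it. Meningeal and perivascular fibroblast markers had a median of 0.05 over 7 genes, with 0 past the threshold in limma (2 lower and 2 higher at an unadjusted p under 0.05). Aldh1a2, the retinoic acid synthesis gene of meninges, read 386.7 and 358.5 with Men1 siRNA and 1246 and 1135 with scramble siRNA, while Ptgds, another meningeal gene, read 275.5 and 201.5 with Men1 siRNA and 45.4 and 123.2 with scramble siRNA.

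Markers of some other cell types differed on the same arrays. All 10 endothelial markers had both Men1 siRNA arrays below both scramble siRNA arrays, an arrangement found for 21.7% of all genes. Their median was −1.96, with summed intensities of 3154 to 3716 with Men1 siRNA and 11680 to 14744 with scramble siRNA. In limma 1 gene passed as lower, beside 0.352% of all genes. It was Emcn, named after its value was seen (at least 4.50-fold lower, limma adjusted p = 0.0452). At an unadjusted p under 0.05 the counts were 9 lower and 0 higher, beside 7.74% and 6.47% of all genes. Epithelial markers had a median of −3.67 over 11 genes, 10 negative and 1 positive, with sums of 1562 to 2673 with Men1 siRNA and 19446 to 30375 with scramble siRNA. Past the threshold 4 fell, beside 0.352% of all genes, and 9 were lower and 0 higher at an unadjusted p under 0.05 in limma. The 4 were Krt8, Krt18, Cdh1 and Cldn3, of which Cdh1 and Cldn3 are named after their values were seen. Krt18, a keratin gene of simple epithelia, read 269.5 and 457.5 with Men1 siRNA and 9975 and 6196 with scramble siRNA. Adipocyte markers were positive for 6 of 6 genes, with sums of 4008 to 6356 with Men1 siRNA and 590.0 to 694.6 with scramble siRNA. In limma 1 passed as higher, beside 0.0372% of all genes (0 lower and 3 higher at an unadjusted p under 0.05). It was Fabp4, the adipocyte fatty acid binding protein gene, which rose by 4.74 ± 0.34 on the log2 scale (limma adjusted p = 0.0281). Immune markers had a median of 0.18 over 10 genes with 0 past the threshold in limma (2 lower and 1 higher at an unadjusted p under 0.05), and sums of 3467 to 4217 with Men1 siRNA and 4487 to 6313 with scramble siRNA. No marker of the endothelial, epithelial, immune or adipocyte lists was under 100 on all arrays. The part of these cell types in the stromal values was not tested.

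**Figure D4:**
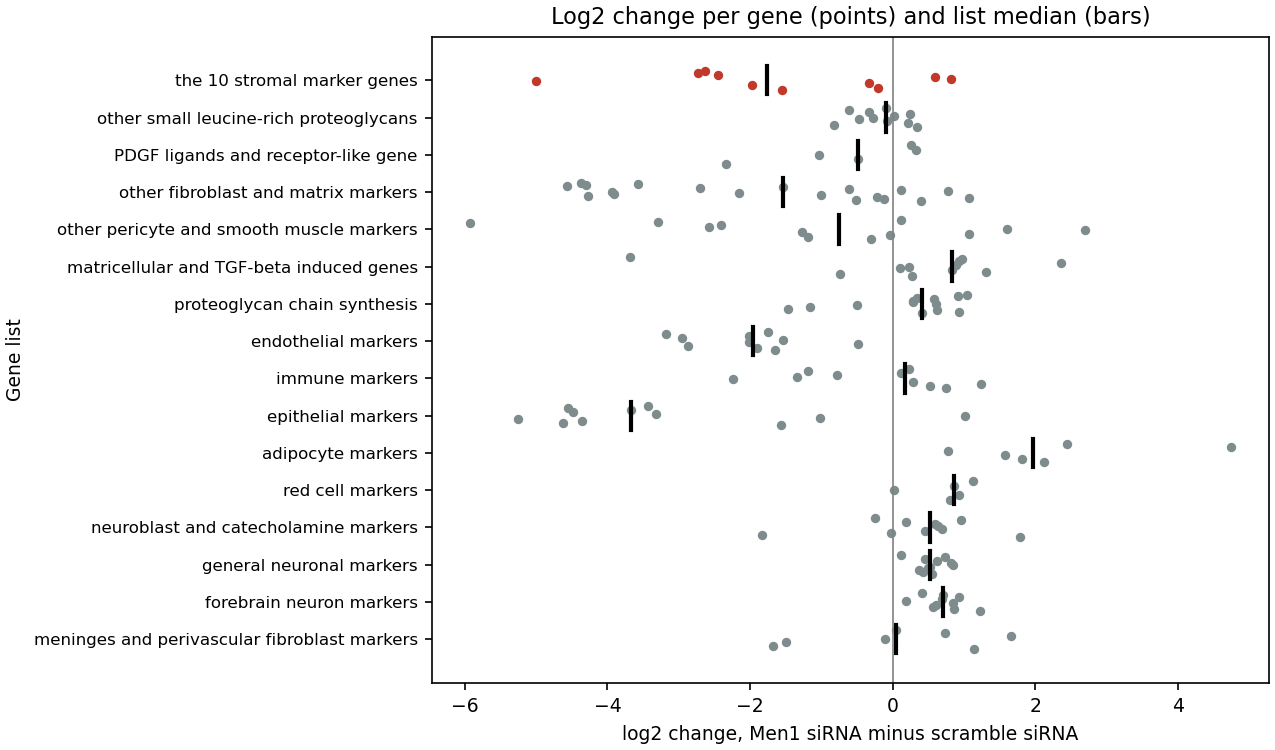
Log2 change of each gene (points) and list median (black bars) for the 10 stromal marker genes, in red, and for the other lists, in grey. The stromal median of −1.76 (−0.98 with the mean of all targets, which was not computed for the other lists) lies near those of other fibroblast markers (−1.54) and endothelial markers (−1.96), above the epithelial median (−3.67) and below those of neuronal (0.53) and adipocyte markers (1.97).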

How the data were processed

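Total RNA of 4 samples was hybridised to 1 array each, labelled and processed by the NimbleGen protocol per the labels, although the series text names an Agilent array. The authors deposited linear intensities, 1 RMA summary for each target, per the file headers. The scanner program and any background step are not given in sources used here. Symbols were updated through NCBI gene IDs, of which 21583 of 24203 matched. Intensities were log2 transformed without a pseudocount or further normalization, and the brightest target (mean log2 over the 4 arrays) stood for its gene. Differences over 24171 genes were fitted in R 4.3.3 with limma 3.58.1 (lmFit, then eBayes), group being the single term, with two-sided p-values and Benjamini-Hochberg adjustment at 0.05. SEs of targets that do not stand for a gene come from the same fit over 44170 targets. Where both arrays of 1 group were under 100, a fold is a bound ("at least"), each dim array being set to 100 where it read lower.

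The genes and lists were chosen with earlier results of these data known, and 1 gene of the neuroblast list is not reported here. Named genes are the 10 markers, Men1, all family and PDGF ligand genes, and the 3 brightest genes of each list. Any other gene was named after its value was seen. The fit was tested on simulated data with 24171 genes for this comparison. Of genes moved by 1, 2, 4 and 6 log2 units it recovered 0.4%, 2.8%, 73.6% and 95.6%. The number of arrays limits the precision. Tables and plots were made in Python 3.11.15 (numpy 2.4.6, pandas 2.3.3, matplotlib 3.10.9). The image names in the file headers do not carry the replicate numbers of the labels for every array, and the series' value table exchanges the 2 scramble siRNA columns (20617 of 20620 targets equal within a relative tolerance of 0.0001), so replicate numbers are names only.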

Additional observations from a re-analysis of the deposited data

How the results depend on the processing

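Of 124 recomputed values of single genes, 108 moved by no more than 1 SD between arrays, 13 moved by more and 3 changed sign. Much of the count of 108 was fixed in advance. With 1 of 2 arrays left out, a value cannot move by more than this SD, so it could only be counted as unmoved or as changed in sign. The filter on dim targets and the value table returned the main values unchanged for the genes they kept. The 108 is therefore not a measure of robustness. The changes of sign were Ogn without Men1 siRNA replicate 1 (−1.05, with 2.42 without replicate 2 of that group) and at its other target (−0.78), and Pdgfra at 1 of its 5 targets (0.29). The median over the 10 genes kept its sign under every alternative that measured all of them, and moved to −0.98 with the mean of all targets, where Bgn had −1.08 and Postn −0.88. It could not be computed with the filter on dim targets, which kept 9 genes, or in the value table, which holds 6. The count of 94 genes past the threshold was 0 with each of the 4 arrays left out, 0 at an adjusted p under 0.01 and 27 with a floor at 100, where Cd248 no longer passed. It was 256 of 24171 genes with a pseudocount of 32 and 711 of 24171 with a trended prior. It was 696 of 15319 genes among targets of at least 100 on both arrays of a group, and 418 of 12701 in the value table. Bgn, Dcn and Pdgfrb passed beside Cd248 with the filter on dim targets, with the trended prior and in the value table, and Dcn with the pseudocount. The cause was not tested. These genes were picked with this contrast in view, so their passing is not independent evidence. Cyclic loess, quantile and median normalization and a robust prior gave 85 to 94. With the replicate number as a block (replicate block) 69 genes passed, Cd248 among them. The differences between replicates 1 and 2 of the 2 groups had a weak negative correlation (r = −0.24 over 20620 targets), the sign of which depends on the numbering. With crossed numbers, an alternative chosen after seeing the data, 0 passed (3980 at an unadjusted p under 0.05 in limma). Signals near 100 limit what can be read for Lum, Fmod, Ogn and Postn.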
